A study of Mus musculus with 28 samples.

Results

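The mRNA levels of 10 Toll-like receptor genes, *Tlr1* to *Tlr9* and *Tlr13*, were examined in hippocampal microglia of 28 mice. The genes were chosen by name from the 48587 genes of the deposited count table, and each is given as CPM, the counts of a library scaled to a common depth, after scaling of the libraries by edgeR's TMM method. Each library holds the RNA of CD11b+CD45low cells sorted from the hippocampus of 1 male mouse on the C57BL/6 J background at 16 weeks of age. By the methods, the sort also gated out cells stained for Ly6C, found on most blood monocytes, or for Ly6G, found on neutrophils. 5xFAD mice are heterozygous for human APP and PS1 transgenes with familial Alzheimer's disease mutations, driven by the neuron-specific Thy-1 promoter, and WT mice are their non-transgenic littermates. Mice were kept under specific pathogen-free (SPF) conditions, germ-free (GF), or under SPF conditions with 8 weeks of antibiotics (ABX: vancomycin, cefoxitin, gentamicin and metronidazol in the drinking water). There were 5 WT and 3 5xFAD mice under SPF, 4 WT and 5 5xFAD mice under GF, and 5 WT and 6 5xFAD mice under ABX conditions. GF mice were bred in Bern and all others in Freiburg, so an effect of germ-free housing and one of the facility cannot be told apart.

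Toll-like receptors (TLRs) are membrane receptors of innate immune cells that recognize conserved microbial molecules and some molecules released from damaged tissue. TLR1, TLR2, TLR4, TLR5 and TLR6 sit at the cell surface. TLR2 pairs with TLR1 or TLR6 to bind lipopeptides and also binds fibrillar amyloid-β, TLR4 together with CD14 and MD-2 binds lipopolysaccharide, and TLR5 binds flagellin. TLR3, TLR7, TLR8, TLR9 and the rodent receptor TLR13 sit in endosomes, where cathepsins process several of them, and bind nucleic acids. Most signal through the adaptor MyD88 to NF-κB, while TLR3 signals through TRIF. In the brain, microglia are the main cells that express them.

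Libraries held 14441610 to 29977395 counted reads. The summed level of 8 microglia markers lay between 57780 and 64590 CPM in WT and between 45230 and 55910 CPM in 5xFAD libraries, with reads for 8 of 8 markers in each group. Neutrophil markers (8 genes) summed to between 56.5 and 221 CPM in the 3 SPF 5xFAD libraries and to 117 CPM in the ABX 5xFAD library FAD_ABX_1151, against at most 1.38 CPM elsewhere. Markers of border-associated macrophages, which sit at the brain's surfaces and vessels, differed between groups and are given with *Tlr8*. The sample descriptions carry 3 series of numbers that the labels do not call batches. The first covers SPF WT and ABX WT mice, the second SPF 5xFAD mice and FAD_ABX_1151, and the third the remaining mice, so that genotype in GF mice and ABX against SPF in WT mice are the comparisons within a single series. 3 libraries stand apart. FAD_GF_201 is a 5xFAD mouse by title and genotype but a WT mouse by description, FAD_ABX_1151 differs in numbering and neutrophil markers, and FAD_ABX_1482 had the lowest *Tlr3*, *Tlr4*, *Tlr7* and *Tlr13* levels of the ABX mice. Where a call of the 9 genes other than *Tlr8* changed without 1 or 2 of them, that value is given.

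All 10 genes passed the filter on low counts, which asks for 3 libraries at or above 0.513 CPM. *Tlr8* passed it only through the ABX 5xFAD mice, 5 of which reached that level against 2 other libraries, so that it was bound to differ there, and it is left out of the counts of called genes that follow. Per kilobase of exon, *Tlr13* was the highest, with a median of 101 CPM per kb over the 28 mice (range 64.8 to 139). *Tlr2* followed with a median of 87.8 CPM per kb (63.0 to 123) and *Tlr7* with 85.0 CPM per kb (55.8 to 127), and the ranges of these 3 genes overlapped widely. *Tlr4* had a median of 32.2 CPM per kb (17.3 to 43.4) and *Tlr3* of 30.1 CPM per kb (14.0 to 42.0), again overlapping. *Tlr1* reached 20.3 CPM per kb (12.4 to 25.8) and *Tlr6*, its partner-sharing relative, 12.6 CPM per kb (9.84 to 16.4). *Tlr5* had a median of 5.21 CPM per kb (1.36 to 8.01) and *Tlr9* of 1.38 CPM per kb (0.710 to 2.90). *Tlr8* was at 0 in 18 of 28 libraries and did not exceed 1.48 CPM per kb. The remaining murine receptor genes, which were not among the 10, were *Tlr12* with a median of 23.3 CPM per kb and *Tlr11* with 0.105 CPM per kb.

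**Figure D1:**
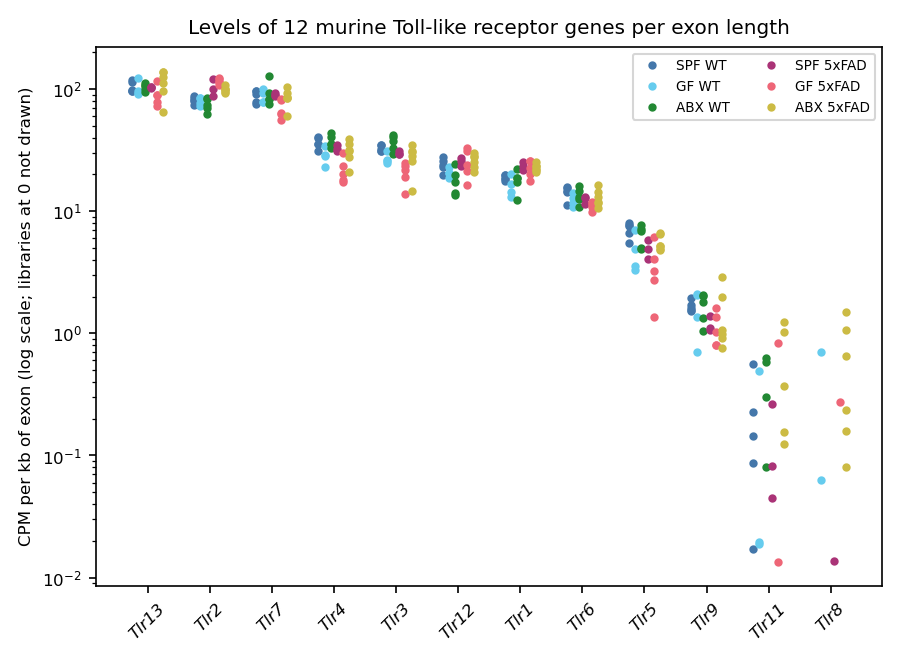
Levels of the 12 murine Toll-like receptor genes as CPM per kb of exon on a log scale, 1 point per mouse, coloured by group and ordered by the median over 28 mice. *Tlr13*, *Tlr2* and *Tlr7* had medians of 101, 87.8 and 85.0 CPM per kb, whereas *Tlr8* and *Tlr11* were at 0 in several libraries, which are not drawn.

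The genes lie on 7 chromosomes of GRCm38, with the coordinates of the count table equal to those of GENCODE M21. *Tlr1* (chr5:64924679-64933563) and *Tlr6* (chr5:64952031-64960097) are neighbours on the minus strand of chromosome 5. *Tlr8* (chrX:167242696-167264329) and *Tlr7* (chrX:167304929-167330558) are neighbours on the minus strand of chromosome X, which also holds *Tlr13* (chrX:106143204-106160493, plus strand). *Tlr2* lies at chr3:83836272-83841767 and *Tlr3* at chr8:45395665-45411080, both on the minus strand. *Tlr4* (chr4:66827584-66930284), *Tlr5* (chr1:182954788-182976044) and *Tlr9* (chr9:106222598-106226883) lie on the plus strand. The exons of *Tlr3* overlap those of the antisense gene *Gm45542*, and since the library kit does not mark strand, reads of both cannot be told apart there.

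*Tlr1* and *Tlr6* also share sequence, which bears on how far their counts are separate. Of all windows of 50 bases in the *Tlr1* transcripts, 13.6% occur in *Tlr6* transcripts, and 12.3% of the *Tlr6* windows occur in those of *Tlr1*. No other pair of the 10 genes shared such a window. The longest identical stretch is shown because a read that falls inside it cannot be assigned to either gene. It covers coding bases 1468 to 1696 of 2385 in *Tlr1* (chr5:64925537-64925765, minus strand, GRCm38) and coding bases 1507 to 1735 of 2418 in *Tlr6* (chr5:64953828-64954056, minus strand).
Tlr1 and Tlr6, shared coding stretch: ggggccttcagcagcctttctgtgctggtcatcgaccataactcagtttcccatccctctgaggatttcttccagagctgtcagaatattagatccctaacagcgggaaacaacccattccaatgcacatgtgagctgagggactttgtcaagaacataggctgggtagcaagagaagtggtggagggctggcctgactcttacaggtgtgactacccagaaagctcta

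Genotype was compared within each housing condition first. *Tlr2* was higher in 5xFAD than in WT mice under all 3 conditions, and *Tlr1* was higher in GF and ABX mice. Of the 9 genes other than *Tlr8*, 1 passed an adjusted p-value of 0.05 in SPF mice, where 4.57% of all 15298 tested genes did (edgeR quasi-likelihood test, Benjamini-Hochberg adjustment over all genes). In GF mice 2 of 9 passed, against 15.6% of all genes, and in ABX mice 2 of 9, against 14.4%. These called genes were higher in 5xFAD mice, as were 3.73, 9.43 and 9.45% of all genes in SPF, GF and ABX mice. The balance of all calls depended on the scaling, with 571 of 699, 1442 of 2391 and 1445 of 2207 higher in 5xFAD mice after TMM, and 533 of 748, 1107 of 3026 and 1160 of 2471 with library size alone. The median log2 fold change of the 9 genes was -0.13, -0.33 and -0.11 under SPF, GF and ABX conditions, and that of all tested genes was between -0.03 and -0.01.

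*Tlr2*, the lipopeptide receptor, was measured at 239.6, 221, 246, 265 and 257 CPM in the SPF WT mice and at 363, 300.5 and 264 CPM in the SPF 5xFAD mice. The ranges met only between the lowest 5xFAD and the highest WT mouse, and the log2 fold change and its SE were 0.33 ± 0.10, at an adjusted p-value of 0.048. Neutrophil markers summed to 221, 147 and 56.5 CPM in these 3 mice, in the same order as *Tlr2*, and to at most 0.177 CPM in SPF WT mice. Monocyte markers (5 genes) summed to 38.9, 23.9 and 16.0 CPM in the same order, and to between 6.13 and 8.42 CPM in SPF WT mice. In such bulk samples more cells of a type and more RNA per cell cannot be told apart. Border-associated macrophage markers (6 genes) lay at 15.3 to 28.3 CPM in these 5xFAD and at 3.48 to 8.09 CPM in these WT mice. The sort gated out cells with Ly6C or Ly6G, and the part of these marker lists in the *Tlr2* difference was not tested. In GF mice, *Tlr2* lay at 257, 229.9, 253 and 219.5 CPM in WT and at 344, 344, 323, 367 and 371 CPM in 5xFAD mice. All 5 GF 5xFAD mice lay above all 4 GF WT mice, with a log2 fold change of 0.55 ± 0.09 and an adjusted p-value of 7.6e-05. Of all tested genes, 14.8% did not overlap between these GF groups. Neutrophil markers stayed at or under 1.38 CPM in both of these groups, and monocyte markers overlapped, with 3.40 to 16.6 CPM in WT and 5.98 to 24.9 CPM in 5xFAD mice. In ABX mice, *Tlr2* lay at 257, 211, 189.9, 223 and 251 CPM in WT mice and between 278 and 324 CPM, with a median of 299 CPM, in the 6 5xFAD mice. These groups did not overlap either, as 6.83% of all genes did not, with a log2 fold change of 0.40 ± 0.08 and an adjusted p-value of 0.0011. Border-associated macrophage markers lay between 3.74 and 5.90 CPM in these WT and between 32.8 and 242 CPM in these 5xFAD mice, and monocyte markers between 2.09 and 9.05 CPM and between 14.4 and 51.9 CPM. Their part in the *Tlr2* and *Tlr1* differences of ABX mice was not tested. Two-sided exact permutation of the log2 CPM gave p = 0.0357 (SPF), 0.00794 (GF) and 0.00216 (ABX), the last 2 being the smallest that these group sizes allow.

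The group means of *Tlr2* fell in the order GF 5xFAD (349.9 ± 19.5 CPM, SD, n = 5), SPF 5xFAD (309 ± 50.2 CPM, n = 3), ABX 5xFAD (298 ± 16.2 CPM, n = 6), SPF WT (246 ± 16.8 CPM, n = 5), GF WT (239.7 ± 17.9 CPM, n = 4) and ABX WT (226 ± 27.97 CPM, n = 5). Neighbours within a genotype did not differ by this test, with adjusted p-values of 0.26 between GF and SPF, 0.93 between ABX and SPF and 0.067 between ABX and GF 5xFAD mice. The size of the genotype difference did not pass the test between conditions either, with interaction log2 values of 0.21 ± 0.13 for GF against SPF and 0.07 ± 0.13 for ABX against SPF mice. Without FAD_GF_201 the difference in GF mice was 0.53 (adjusted p = 0.000165), and without FAD_ABX_1151 and FAD_ABX_1482 that in ABX mice was 0.37 (adjusted p = 0.0056). The SPF call rested on single mice, since it was lost in 9 of 28 fits that left out 1 mouse (WT_SPF_912, WT_SPF_925, WT_SPF_926, WT_SPF_936, WT_GF_229, WT_GF_231, FAD_SPF_1144, FAD_SPF_1146 or FAD_ABX_1453), and the adjusted p-value was 0.497 without FAD_SPF_1144.

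*Tlr1*, a partner of *Tlr2* in sensing triacylated lipopeptides, lay at 59.0, 66.2, 66.4, 62.2 and 61.8 CPM in SPF WT and at 84.3, 72.9 and 78.8 CPM in SPF 5xFAD mice. These groups did not overlap, and the exact permutation p of 0.0179 was the smallest possible, but the adjusted p-value of the fit was 0.29 with a log2 fold change of 0.32 ± 0.14. Non-overlap occurred for 2 of the 10 genes in SPF mice, *Tlr1* and *Tlr9*, and for 16.9% of all tested genes. In GF mice, *Tlr1* lay at 67.4, 43.5, 55.6 and 48.0 CPM in WT and at 75.4, 68.2, 59.0, 86.3 and 85.7 CPM in 5xFAD mice. There 4 of 5 5xFAD mice lay above every WT mouse, with a log2 fold change of 0.48 ± 0.14 and an adjusted p-value of 0.014. Without FAD_GF_201 the adjusted p-value was 0.0284, and without the WT mice WT_GF_229 or WT_GF_231 the call was lost, with adjusted p-values of up to 0.0687. It was also lost with library size alone (0.36, adjusted p = 0.0633) and in a fit of only the groups compared, and kept in 8 of 10 alternatives. In ABX mice, *Tlr1* lay at 74.6, 62.7, 62.2, 41.4 and 58.0 CPM in WT and between 69.8 and 83.9 CPM, with a median of 76.3 CPM, in 5xFAD mice. The log2 fold change of 0.35 ± 0.12 stood just inside the threshold with an adjusted p-value of 0.0494, and was lost in 19 of 28 fits without 1 mouse (adjusted p from 0.0178 to 0.155 over all 28, 0.0604 without FAD_ABX_1151 and 0.0569 without FAD_ABX_1482) and over the 26 mice without FAD_ABX_1151 and FAD_ABX_1482 (adjusted p = 0.0763). Library size alone, no low-count filter, voomWithQualityWeights and a fit of only the groups compared lost it as well, 5 of 10 alternatives in all. *Tlr6*, the other partner of *Tlr2*, lay between 36.7 and 61.2 CPM in all mice, and its adjusted p-values for genotype were 0.60 (SPF), 0.45 (GF) and 0.84 (ABX).

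**Figure D2:**
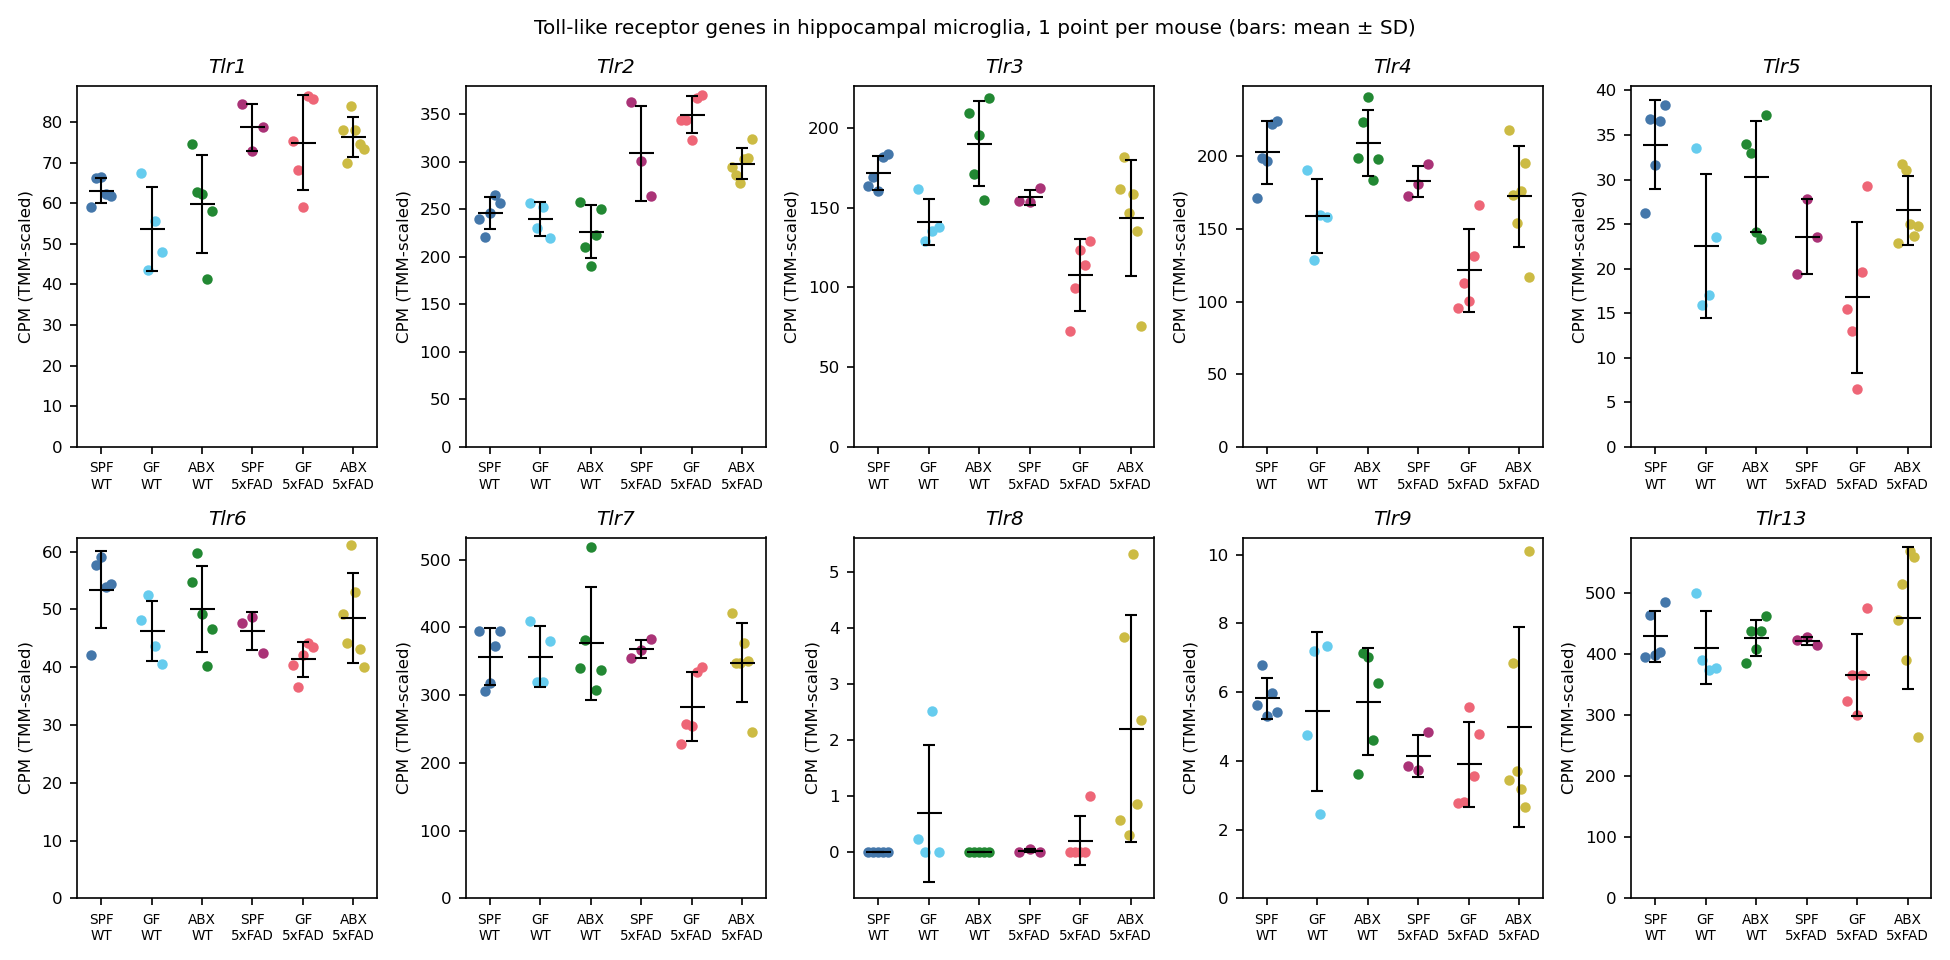
CPM (TMM-scaled) of the 10 genes in the 6 groups, 1 point per mouse, with black bars for the mean ± SD and axes from 0 (for *Tlr8* the SD bar reaches below it). *Tlr2* rises from 239.7 to 349.9 CPM between GF WT and GF 5xFAD mice, *Tlr3* and *Tlr4* are lowest in GF 5xFAD mice at 108 and 121.5 CPM, and *Tlr8* is at 0 in every SPF WT and ABX WT mouse.

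The stretches before *Tlr1* and *Tlr2* are shown because these were the genes called for genotype in more than 1 condition. They come from RefSeq's promoter table (GRCm38.p6), which holds 250 bases before and 50 after the gene start for 8 of the 10 genes, *Tlr4* and *Tlr7* being the others. They were trimmed to the bases before the GENCODE gene start, and run 5′ to 3′ on the minus strand. In *Tlr1* (chr5:64933564-64933808), capitals mark GAGGAA, the core of the sites bound by the myeloid transcription factor PU.1, which begins 18 bases before the gene. In *Tlr2* (chr3:83841768-83841858), capitals mark a pair of overlapping matches to the NF-κB consensus, which span 11 bases and begin 14 bases before the gene.
Tlr1: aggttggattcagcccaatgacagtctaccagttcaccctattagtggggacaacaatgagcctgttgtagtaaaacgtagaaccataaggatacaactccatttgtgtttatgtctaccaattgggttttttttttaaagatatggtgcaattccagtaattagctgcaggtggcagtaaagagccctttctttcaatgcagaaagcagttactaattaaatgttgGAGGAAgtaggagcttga
Tlr2: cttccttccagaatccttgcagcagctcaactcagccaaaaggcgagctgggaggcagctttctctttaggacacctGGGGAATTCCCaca
On both strands of the full windows, GAGGAA was found in 4 of the 8 promoters (*Tlr1*, *Tlr8*, *Tlr9* and *Tlr13*) and in 23.3% of 32851 promoters. The NF-κB consensus was found in 2 of 8 (*Tlr2* and *Tlr3*) and in 3.9% of all promoters, and a pair of interferon response half-sites in 0 of 8 and in 2.98%. A match is a description of the letters, not a site shown to be bound.

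Housing was compared within each genotype next. In 5xFAD mice, *Tlr3* and *Tlr4* were lower under GF than under SPF conditions, and *Tlr4* was higher in ABX than in GF mice. These calls were lost with offsets for the GC content of transcripts, as given further below. *Tlr3* and *Tlr4*, 2 of the 9 genes, passed in GF against SPF 5xFAD mice, where 12.8% of all genes did (5.86% lower, 6.97% higher). Of the calls among all genes, 1066 of 1962 were higher, but 626 of 1921 with library size alone. In ABX against GF 5xFAD mice 1 of 9 passed, against 10.6% of all genes (4.52% higher, 6.07% lower; 692 of 1621 calls higher, but 1173 of 1727 with library size alone), and the groups overlapped for each of the 9, while 2.82% of all genes did not overlap. In WT mice no gene of the 9 passed for GF against SPF (1.62% of all genes) or for ABX against GF (6.88%, with 2.4% higher and 4.48% lower), with 2 of the 9 each at an unadjusted p under 0.05, 0 by DESeq2 and 2 by voomWithQualityWeights (*Tlr4* and *Tlr5*, and *Tlr3* and *Tlr4*), which called 10.7 and 13.2% of all genes. ABX against SPF mice gave 0 of 9 and 0% of all genes in both genotypes by edgeR. None of these 9 genes had an unadjusted p under 0.05 there or was called by DESeq2, which called 2 of all 15298 genes in WT and 8 in 5xFAD mice, or by voomWithQualityWeights, which called 0 and 134. By edgeR 687 and 1085 of all genes had an unadjusted p under 0.05.

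*Tlr4*, the lipopolysaccharide receptor, lay at 172.8, 181.1 and 194.5 CPM in SPF 5xFAD mice and at 95.95, 113, 101, 131 and 166.5 CPM in GF 5xFAD mice. The groups did not overlap, the highest GF mouse being FAD_GF_201, and the log2 fold change was -0.59 ± 0.16 with an adjusted p-value of 0.016. Neutrophil markers lay at 56.5 to 221 CPM in these SPF and at most 1.38 CPM in these GF mice, although the sort gated out Ly6G. Endothelial cell markers (4 genes) lay at 23.9 to 29.7 CPM in these SPF and at 9.42 to 21.4 CPM in these GF mice. The part of either list in this difference and in that of *Tlr3* was not tested. Without FAD_GF_201 the *Tlr4* difference was -0.73 (adjusted p = 0.0026). Without FAD_SPF_1146 or FAD_SPF_1148 the call was lost, at adjusted p-values of up to 0.084. *Tlr5* was also called without FAD_GF_201 (-0.80, adjusted p = 0.0401). In ABX 5xFAD mice *Tlr4* lay between 117 and 218 CPM with a median of 175 CPM, and 4 of 6 mice lay above all GF 5xFAD mice. The log2 fold change against GF mice was 0.51 ± 0.14 (adjusted p = 0.017), 0.60 without FAD_ABX_1482 and 0.44 without FAD_ABX_1151, the latter with an adjusted p-value of 0.0503. It was also lost without FAD_GF_181 or FAD_GF_184 (adjusted p-values of up to 0.0563), and without FAD_GF_201 4 of 9 genes passed (*Tlr3*, *Tlr4*, *Tlr5* and *Tlr13*), as did 13% of all genes. Border-associated macrophage markers summed to 32.8 to 242 CPM in ABX and 9.44 to 77.0 CPM in GF 5xFAD mice, and their part in these differences was not tested. In WT mice the levels were 172, 198.8, 197, 222 and 224 CPM under SPF, 191, 128, 159 and 158 CPM under GF conditions, and the 5 ABX mice reached 241 CPM, with 4 of them between 198 and 241 CPM. The GF mice lay low here too, with 3 of 4 below every SPF mouse, but the log2 fold change of -0.35 ± 0.15 did not pass (adjusted p = 0.23). From ABX WT to GF 5xFAD mice the means fell from 209 ± 22.9 (SD, n = 5) over 203 ± 21.5 (SPF WT), 183 ± 10.9 (SPF 5xFAD), 172.5 ± 34.7 (ABX 5xFAD) and 159 ± 25.5 (GF WT) to 121.5 ± 28.7 CPM (n = 5), and the ranges of neighbouring groups in this order overlapped.

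*Tlr3*, the receptor for double-stranded RNA, lay at 154, 153.5 and 162 CPM in SPF 5xFAD mice and at 72.7, 99.6, 123, 114 and 129 CPM in GF 5xFAD mice. The groups did not overlap, and the log2 fold change was -0.54 ± 0.18 with an adjusted p-value of 0.043. It was lost in 6 of 28 fits without 1 mouse, which left out any of the SPF 5xFAD mice or FAD_GF_181, FAD_GF_182 or FAD_GF_185. In ABX 5xFAD mice *Tlr3* lay between 75.96 and 181.5 CPM with a median of 153 CPM, the lowest being FAD_ABX_1482. Against GF mice the log2 fold change was 0.41 ± 0.15 (adjusted p = 0.074), and without FAD_ABX_1482 it was 0.54 (adjusted p = 0.0024). For 5xFAD against WT in ABX mice it was -0.41 ± 0.15 (adjusted p = 0.064), -0.44 without FAD_ABX_1151 (adjusted p = 0.0476) and -0.28 without FAD_ABX_1482 (adjusted p = 0.124). In WT mice *Tlr3* lay at 163, 169, 161, 181.9 and 183 CPM under SPF, 162, 129, 135 and 138 CPM under GF and 209, 171, 196, 155 and 219 CPM under ABX conditions, with 3 of 4 GF mice below every SPF and every ABX mouse.

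*Tlr7*, a receptor for single-stranded RNA, was the third gene whose GF and SPF 5xFAD mice did not overlap, with 228, 258, 254, 335 and 342 CPM against 355, 366.5 and 383 CPM. Its log2 fold change was -0.38 ± 0.16 with an adjusted p-value of 0.11, and 19.6% of all tested genes did not overlap between these groups. In WT mice *Tlr7* had a mean of 357 ± 42.6 CPM under SPF (SD, n = 5), 357 ± 44.8 CPM under GF (n = 4) and 377 ± 83.4 CPM under ABX conditions (n = 5). *Tlr13*, the receptor for bacterial ribosomal RNA, lay between 374 and 499 CPM in WT mice, and its mean was 422 ± 6.39 CPM in SPF (n = 3), 366 ± 67.3 CPM in GF (n = 5) and 459 ± 116 CPM in ABX 5xFAD mice (n = 6). For ABX against GF 5xFAD mice its log2 fold change was 0.33 ± 0.14 (adjusted p = 0.12), and 0.45 without FAD_ABX_1482 (adjusted p = 0.0063). In this comparison *Tlr2* (-0.26, adjusted p = 0.0373) and *Tlr7* (0.38, adjusted p = 0.0341) passed without FAD_ABX_1482 too, and *Tlr3* (0.49, adjusted p = 0.042), *Tlr5* (0.96, adjusted p = 0.0061) and *Tlr13* (0.44, adjusted p = 0.0336) without FAD_GF_201. Over the 26 mice without FAD_ABX_1151 and FAD_ABX_1482, *Tlr3* was at 0.53 (adjusted p = 0.00755) and *Tlr13* at 0.48 (adjusted p = 0.0092). Without FAD_ABX_1482, *Tlr3* also passed for ABX against GF WT mice (0.43, adjusted p = 0.0297), at an unchanged fold change, and over the 26 mice (adjusted p = 0.0295). *Tlr5*, the flagellin receptor, was, like *Tlr4*, lowest in GF 5xFAD mice (16.8 ± 8.45 CPM, SD, n = 5) and next in GF WT mice (22.5 ± 8.08 CPM, n = 4), close to SPF 5xFAD mice (23.6 ± 4.23 CPM, n = 3), against 26.5 ± 3.85 CPM in ABX 5xFAD (n = 6), 30.3 ± 6.25 CPM in ABX WT (n = 5) and 33.9 ± 4.98 CPM in SPF WT mice (n = 5). The highest GF mice for *Tlr5* were WT_GF_199 with 33.5 CPM and FAD_GF_201 with 29.3 CPM, and the other 7 lay between 6.497 and 23.6 CPM. *Tlr5* passed the test of any difference among the 6 groups together with *Tlr1*, *Tlr2*, *Tlr3* and *Tlr4*, 5 of 9 genes against 33.2% of all genes, and *Tlr13* passed it without FAD_ABX_1482 (adjusted p = 0.0451) and over the 26 mice (adjusted p = 0.0435). *Tlr9*, the receptor for unmethylated CpG DNA, lay between 2.47 and 10.1 CPM and passed in no comparison (44 to 190 reads per library).

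Genotype differences of these genes in GF mice moved with the choice of mice. *Tlr3* had a log2 fold change of -0.39 ± 0.16 and *Tlr4* of -0.39 ± 0.15 for 5xFAD against WT GF mice, with adjusted p-values of 0.11 and 0.076. Without FAD_GF_201, 4 of 9 genes passed in this comparison, where 18.1% of all genes did, *Tlr4* (-0.52, adjusted p = 0.0103) and *Tlr5* (-0.72, adjusted p = 0.0412) joining *Tlr1* and *Tlr2*, and without WT_GF_231 *Tlr2* alone passed. Over the 26 mice without FAD_ABX_1151 and FAD_ABX_1482, 4 of 9 passed, *Tlr3* (adjusted p = 0.0302) and *Tlr4* (adjusted p = 0.0353) at the same fold changes (0.0283 and 0.0412 without FAD_ABX_1482 alone), where 17.9% of all genes passed and 6.2% of all genes were called lower over the 28 mice. The interactions of genotype with condition, which ask whether the 5xFAD difference changed with housing, were called for 0 of 9 genes when GF or ABX mice were set against SPF mice (0% of all genes by edgeR, with 0 of the 9 at an unadjusted p under 0.05). DESeq2 and voomWithQualityWeights called 0 of the 9 as well, and of all genes 25 and 116 for GF and 1 and 14 for ABX mice, while 1304 and 1032 had an unadjusted p under 0.05 by edgeR. For ABX against GF mice they were called for 0 of the 9 genes by edgeR, DESeq2 and voomWithQualityWeights (0 at an unadjusted p under 0.05), and for 1.76% of all genes by edgeR.

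**Figure D3:**
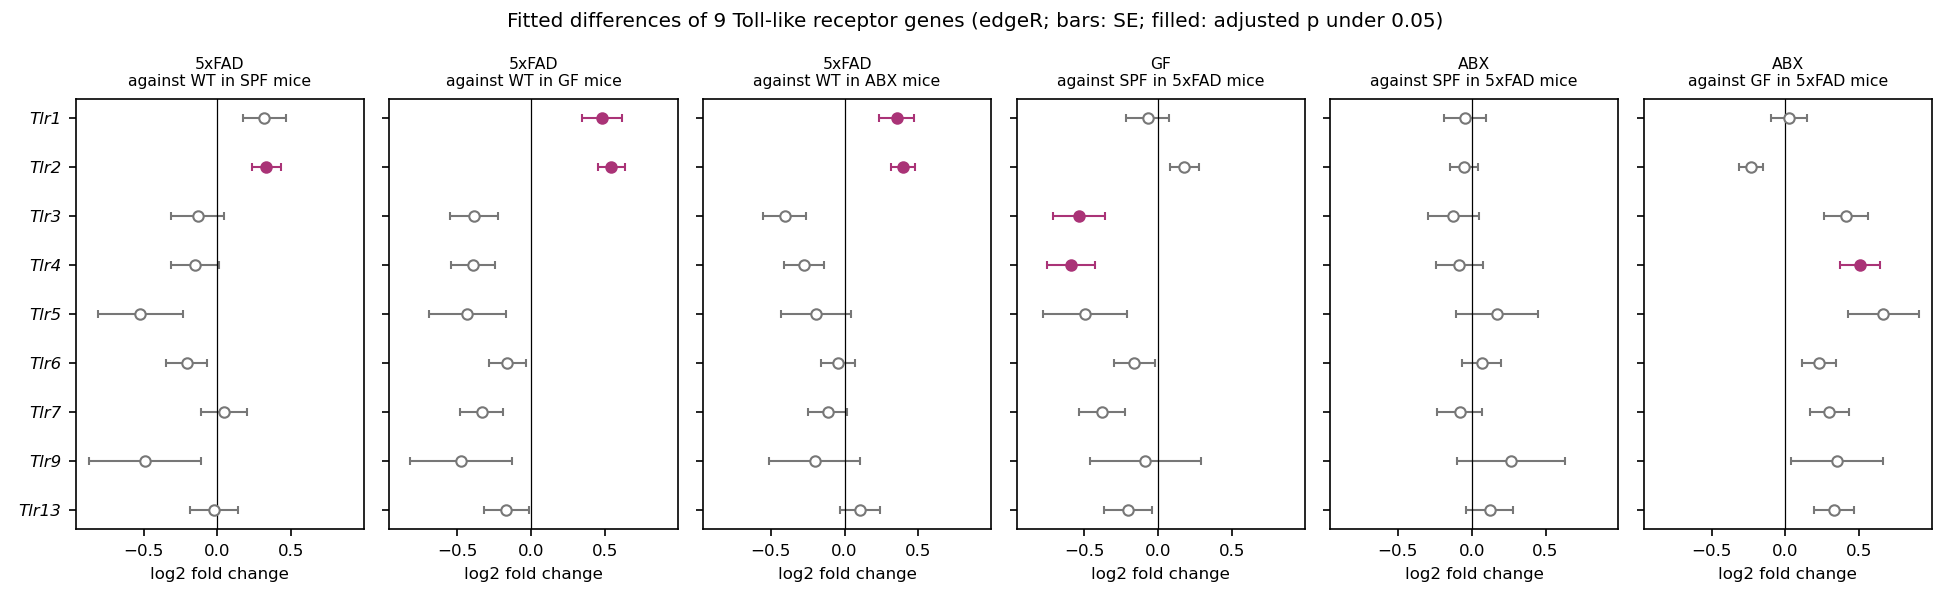
Fitted log2 fold changes ± SE of 9 genes in 6 comparisons, with filled points for an adjusted p-value under 0.05. *Tlr2* lies at 0.33, 0.55 and 0.40 for 5xFAD against WT in SPF, GF and ABX mice, and *Tlr4* at -0.59 for GF against SPF and 0.51 for ABX against GF 5xFAD mice. The middle comparisons share groups with those beside them.

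The differences between housing conditions depended on how base composition was treated. The transcripts of *Tlr13*, *Tlr7*, *Tlr4* and *Tlr3* have GC contents of 41.5, 41.6, 42.2 and 43.5 percent, under the lower quartile of all tested genes (45.5 percent), whereas *Tlr2* has 49.3, *Tlr5* 50.9 and *Tlr9* 56.2 percent. With per-library offsets for GC content, the GF difference from SPF 5xFAD mice was -0.30 ± 0.13 on the log2 scale for *Tlr4* (adjusted p = 0.15) and -0.30 ± 0.16 for *Tlr3* (adjusted p = 0.24). It was -0.07 ± 0.12 for *Tlr7*, and for *Tlr13* it turned from -0.21 ± 0.16 to 0.11 ± 0.15. *Tlr1* (-0.07 to 0.11) and *Tlr6* (-0.16 to 0.01) changed sign as well, and *Tlr5* was at -0.50 ± 0.28 with either scaling. With these offsets 0 of 9 genes passed in this comparison by edgeR, against 9.43% of all genes, and with gene length offsets *Tlr4* alone passed (-0.49, adjusted p = 0.0243). For ABX against GF 5xFAD mice the *Tlr4* difference was 0.34 ± 0.11 with GC content offsets (adjusted p = 0.0524), and *Tlr2* passed at -0.25 ± 0.08 (adjusted p = 0.0468). The *Tlr2* and *Tlr1* differences between genotypes did not weaken in this way, with 0.55 and 0.54 in GF mice and 0.41 and 0.48 in ABX mice.

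**Figure D4:**
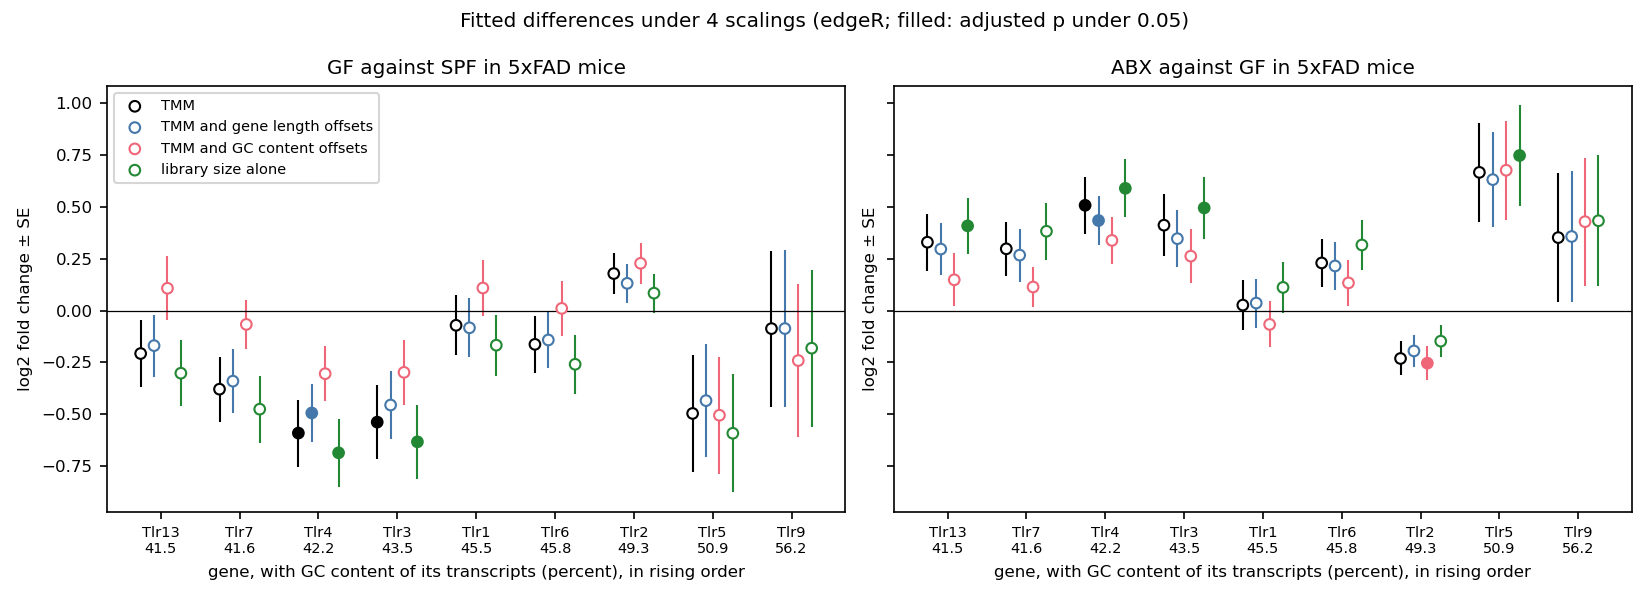
Log2 fold changes ± SE of 9 genes for GF against SPF (left) and ABX against GF 5xFAD mice (right) under 4 scalings, with genes ordered by GC content and filled points for an adjusted p-value under 0.05. In the left panel *Tlr4* moves from -0.59 to -0.30 and *Tlr13* from -0.21 to 0.11 with GC content offsets, while *Tlr2* and *Tlr5* keep their direction.

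*Tlr8*, an endosomal receptor for RNA, was found in few libraries. No read was counted in any of the 5 SPF WT and 5 ABX WT libraries. The 6 ABX 5xFAD libraries held 10, 94, 5, 129, 14 and 36 reads. Elsewhere 47 reads were counted in WT_GF_230, 5 in WT_GF_199, 19 in FAD_GF_201 and 1 in FAD_SPF_1146. The ABX 5xFAD level was at least 81.4-fold higher than that of ABX WT mice, taking 3 reads over the group as the floor of the latter, which covers counting error only. It is a description without a test, since the gene was kept by the filter through these mice. In GF mice the means were 0.686 CPM in WT and 0.197 CPM in 5xFAD mice, each resting on 1 mouse. WT_GF_230 held 47 of the 52 reads in GF WT mice, whose mean was 0.0746 CPM without it, and FAD_GF_201 held all 19 reads in GF 5xFAD mice.

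Markers of border-associated macrophages moved with *Tlr8*. Their sum over 6 genes lay between 32.8 and 242 CPM in ABX 5xFAD and between 3.74 and 5.90 CPM in ABX WT mice. It ranged from 3.48 to 8.09 CPM in SPF WT, 10.7 to 41.9 CPM in GF WT, 15.3 to 28.3 CPM in SPF 5xFAD and 9.44 to 77.0 CPM in GF 5xFAD mice. All 6 markers had reads in ABX 5xFAD mice, and 4 of 6 in ABX WT mice. *Mrc1*, the mannose receptor and one of these markers, had the highest correlation with *Tlr8* among genes whose mean log2 CPM reached 3 (r = 0.82 over 28 libraries). Genes under that level were not ranked, and this r includes differences between groups. After the group means were taken out, r was 0.50 for *Mrc1*. For the next genes of the ranking, *Osbpl2* and *Slfn2*, it was 0.25 and 0.66. FAD_ABX_1453 had 183 CPM of markers but 5 *Tlr8* reads, and WT_GF_230 had 36.7 CPM of markers and 47 reads. Monocyte markers lay between 14.4 and 51.9 CPM in ABX 5xFAD and between 2.09 and 9.05 CPM in ABX WT mice. They were highest in FAD_ABX_1455 (51.9 CPM) and FAD_ABX_1452 (44.3 CPM), which held 129 and 94 *Tlr8* reads. FAD_ABX_1460 (21.08 CPM), FAD_ABX_1151 (18.75 CPM) and FAD_ABX_1453 (14.4 CPM) held 14, 10 and 5 reads. FAD_ABX_1482 had the lowest sum of the ABX 5xFAD mice (14.35 CPM) but 36 reads. FAD_SPF_1144 (38.9 CPM) and FAD_GF_182 (24.9 CPM) had no *Tlr8* read. Astrocyte markers (4 genes) lay between 2.88 and 16.5 CPM in ABX 5xFAD and between 0.655 and 3.36 CPM in ABX WT mice. The part of any of these cells in the *Tlr8* difference was not tested.

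**Figure D5:**
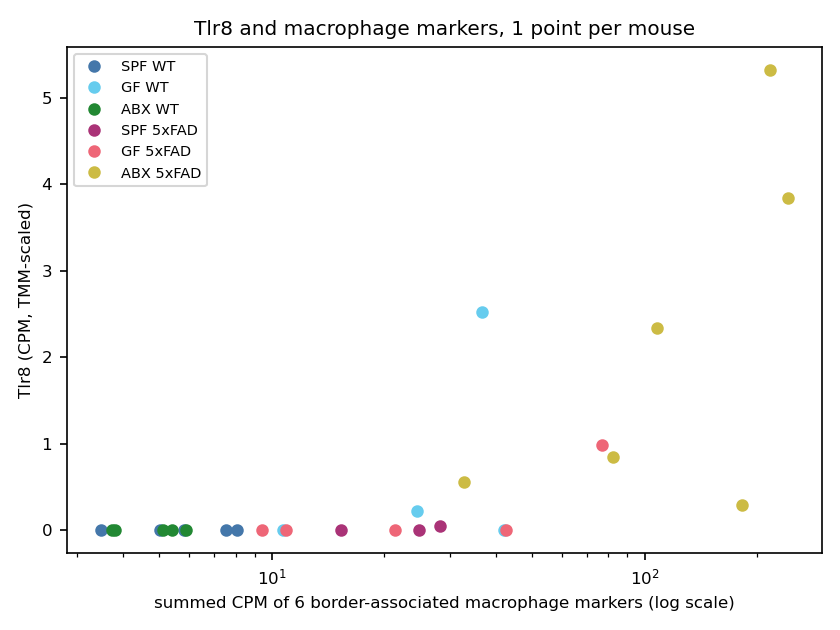
*Tlr8* (CPM) against the summed CPM of 6 border-associated macrophage markers (log scale), 1 point per mouse. The 10 SPF WT and ABX WT mice lie at 0 CPM of *Tlr8* and at most 8.09 CPM of markers, and the 6 ABX 5xFAD mice lie between 0.288 and 5.32 CPM of *Tlr8* and 32.8 and 242 CPM of markers.

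The genes did not all vary together. Over the 28 libraries, log2 CPM of *Tlr4* correlated with that of *Tlr3* (r = 0.85), *Tlr7* (0.81), *Tlr5* (0.75) and *Tlr13* (0.68), and that of *Tlr1* with *Tlr2* (0.67). After the group means were taken out the values were 0.67, 0.80, 0.50, 0.73 and 0.33. These points share libraries, depth and base composition, and r is given as a description. The genes below are ranked by r over all 28 libraries, which includes differences between groups. Only genes whose mean log2 CPM reached 3 were ranked. The genes most like *Tlr2* were the glucose transporter gene *Slc2a1* (0.91), *Got1* (0.90) and the urokinase receptor gene *Plaur* (0.90), with 0.58, 0.45 and 0.44 after the group means were taken out. Those most like *Tlr1* were *Ctsc*, which encodes cathepsin C (0.79), *Gng12* (0.79) and *Plek* (0.78), with 0.75, 0.54 and 0.33 in the same way. Those most like *Tlr4* were *Ythdf3* (0.93), *Tgfbr1*, a receptor of TGF-β (0.93), and *Ivns1abp* (0.92), and those most like *Tlr3* were *Gm37494* (0.93), the interferon-inducible *Irgm2* (0.90) and *Kpna3* (0.89). The third most like gene of *Tlr7* was *Tlr4* itself, after *Wac* (0.84) and *Hspa13* (0.83). For *Tlr13* the list was *Vwa5a* (0.86), *Pik3cg* (0.85) and *Pot1a* (0.80), and for *Tlr5* it was *Ufl1* (0.84), *Aasdh* (0.83) and *Lysmd3* (0.81). Coefficients were lower for *Tlr6* (*Zfp760*, *Ccnc* and *Polr3f*, 0.70 each) and *Tlr9* (*Col4a3bp* 0.73, *Usf2* 0.70 and *Tab2* 0.65).

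A list of 72 other genes of the pathway, 66 of which could be tested, was followed by role. For 5xFAD against WT mice, 8 passed in SPF (6 higher), 15 in GF (11 higher) and 18 in ABX mice (14 higher), or 12.1, 22.7 and 27.3% of the 66, against the shares of all genes given above. Fits without 1 mouse gave 6 to 9, 11 to 17 and 9 to 20, the 9 without WT_ABX_911. With library size alone the balance shifted, with 6 of 10 called genes higher in SPF, 8 of 20 in GF and 8 of 14 in ABX mice. voomWithQualityWeights gave 19 in SPF mice, GC content offsets 12 in ABX mice, and fits of only the groups compared 13 in SPF and 10 in ABX mice. The called genes were mostly receptor proteases, co-receptors and targets. *Ctsb*, a lysosomal cathepsin of the proteases that cleave endosomal TLRs, rose by log2 1.34 ± 0.12 (SPF), 1.62 ± 0.12 (GF) and 1.22 ± 0.11 (ABX) (all adjusted p under 0.05), and *Ctsl* by 0.87 ± 0.12, 1.34 ± 0.11 and 0.94 ± 0.10. *Ctss* rose in GF (0.58 ± 0.08) and ABX mice (0.28 ± 0.07), whereas *Lgmn*, asparagine endopeptidase, fell in SPF mice (-0.62 ± 0.11). Of the co-receptors, *Cd36*, a scavenger receptor, rose from 0.216 ± 0.301 to 2.67 ± 1.32 CPM in SPF mice (adjusted p = 0.0297) and from 0.286 ± 0.640 to 10.8 ± 5.22 CPM in ABX mice (adjusted p = 0.000183). It is not among the genes called in GF mice, and the monocyte and border-associated macrophage markers were higher in 5xFAD mice in these comparisons too, their part being not tested. *Cd14* rose in GF (0.37 ± 0.11) and ABX mice (0.33 ± 0.10), *Cd180* and its partner *Ly86* rose in GF mice (0.64 ± 0.14 and 0.70 ± 0.17), and *Ly96*, which encodes MD-2, fell in ABX mice (-0.74 ± 0.17).

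Among the targets, the chemokine genes *Ccl3* and *Ccl4* rose under all 3 conditions. *Ccl3* was at 21.4 ± 4.70 and 141.5 ± 47.7 CPM (SD, n = 5 and 3) in SPF WT and 5xFAD mice, 24.2 ± 12.0 and 290.3 ± 110 CPM (n = 4 and 5) in GF mice, and 19.1 ± 5.23 and 151 ± 35.7 CPM (n = 5 and 6) in ABX mice. Of 15 targets tested, 2 passed in SPF (2 higher), 4 in GF (4 higher) and 4 in ABX mice (3 higher and 1 lower). The lower gene was *Il6* (-0.68 ± 0.23, adjusted p = 0.0444, edgeR). Of 6 adaptors, 14 kinases and ubiquitin ligases and 10 transcription factors, the called genes were 1 higher and 1 lower in SPF, 0 higher and 4 lower in GF and 3 higher and 2 lower in ABX mice. The adaptor *Myd88* fell in SPF mice (-0.39 ± 0.10), the ubiquitin ligase *Traf6* (-0.57 ± 0.18), the kinase *Chuk* (-0.31 ± 0.10) and *Nfkb1* (-0.49 ± 0.10) in GF mice, while the interferon regulatory factor *Irf7* rose in SPF (2.33 ± 0.59) and ABX mice (1.89 ± 0.51).

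Between housing conditions, 10 of the 66 passed for GF against SPF 5xFAD mice (9 higher, 15.2%), 7 for ABX against GF 5xFAD mice (0 higher, 10.6%), 9 for ABX against GF WT mice (4 higher, 13.6%) and 1 for GF against SPF WT mice (*Ly86*, -0.63 ± 0.17, 1.52%). Of all genes, 12.8, 10.6, 6.88 and 1.62% passed in these comparisons, in the same order. ABX against SPF mice gave 0 in either genotype by edgeR (2 by voomWithQualityWeights in 5xFAD mice, and 1 over the 26 mice or without FAD_ABX_1151). Without 1 mouse the first 3 counts ranged from 3 to 12 (3 without FAD_SPF_1146, 4 without FAD_SPF_1148, 6 without FAD_GF_182), 4 to 14 (4 without FAD_GF_182, 14 without FAD_ABX_1482) and 3 to 11 (3 to 5 without WT_GF_229, WT_GF_230, WT_GF_231, WT_ABX_910 or WT_ABX_911), and the last from 0 to 2. With library size alone 7 of 9, 3 of 9 and 4 of 7 called genes were higher in the first 3. By voomWithQualityWeights the counts were 19, 8, 15 and 9, and with only the groups compared 9, 2, 8 and 11. *Cd14*, the co-receptor of *Tlr4*, was higher in GF than in SPF 5xFAD mice (0.65 ± 0.12), with 799 ± 67.7 against 509.9 ± 39.6 CPM (n = 5 and 3), so that it moved opposite to *Tlr4*. It was lower in ABX than in GF 5xFAD mice (-0.39 ± 0.10). *Ccl3* and *Ccl4* likewise were higher in GF than in SPF 5xFAD mice (1.04 ± 0.31 and 1.17 ± 0.37) and lower in ABX than in GF 5xFAD mice (-0.94 ± 0.25 and -1.14 ± 0.29). With GC content offsets the counts were 8 and 6 for these comparisons of 5xFAD mice, but 1 in place of 9 for ABX against GF WT mice, where the share of all genes fell from 6.88 to 1.61%. Over the 26 mice, 4 in place of 1 passed for GF against SPF WT mice, where 4.31% of all genes did.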

How the data were processed

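The deposited table holds raw read counts per gene without normalization. Per the labels and the methods, the authors aligned reads with STAR (2.7.2 in the submitters' notes) to GRCm38 and counted them with featureCounts (1.6.2) on GENCODE M21. The labels also list a human build, but the table's TLR coordinates equal those of M21. SMART-type amplification from little RNA gives no strand and no molecular identifiers. A column of summed exon lengths by the authors was used for CPM per kb. The 92 spike-in entries, at most 12 reads, were set aside.

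Groups came from the titles. Replicates were no duplicates (lowest chi-square per degree of freedom 6.92), and each is 1 mouse. Genes were kept by filterByExpr (minimum count 10, minimum total 15), scaled by TMM and tested with edgeR 4.0.16 (R 4.3.3) in 1 model with 1 term per group, 12 contrasts and an F test, at an adjusted p-value of 0.05 over 15298 genes. Single genes were also compared by exact two-sided permutation tests of log2 CPM (prior count 2). Cell type markers are CPM of library totals. Nearest genes had an average of at least 3 log2 CPM. Steps were tested on simulated data. Alternatives were RLE factors, library size alone, no filter, 10 reads in every library, DESeq2 1.42.0, voomWithQualityWeights (limma 3.58.1), gene length and GC content offsets, only the groups compared, 26 mice, and leaving out each of 28 mice. The pathway counts and *Tlr12* under these settings were added after the data were seen. *Tlr8* was left out of reported tests and counts of calls, apart from the outlier criterion, after the data were seen too. The 10 genes, the pathway list and the marker lists were chosen with earlier results of these data known. Named pathway genes are at most 4 per role, by the size of the change among those past the threshold.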

Additional observations from a re-analysis of the deposited data

Results flagged for a closer look

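By Dixon's criterion, applied to 48 sets of mice (1 gene in 1 group of 4 to 6 mice) of which chance alone picks about 1 in 20 where the values are normal, 3 single mice lay far from the rest of their group. *Tlr8* reached 2.52 CPM in WT_GF_230, where the next GF WT mouse had 0.224 CPM. It reached 0.986 CPM in FAD_GF_201, the mouse whose description calls it WT, while the other 4 GF 5xFAD mice had no read. With the others at 0, any read in a single mouse meets the criterion, so this flag is a description and not a test. The rate of 1 in 20 does not hold for *Tlr8*, whose values lie near 0. *Tlr13* reached 499 CPM in WT_GF_199, where the next GF WT mouse had 391 CPM. The border-associated macrophage markers summed to 36.7 CPM in WT_GF_230, where WT_GF_229 without *Tlr8* reads had 41.9 CPM, and to 77.0 CPM in FAD_GF_201, the highest of the GF mice, and their part in these values was not tested. Without WT_GF_230 the mean of *Tlr8* in GF WT mice was 0.0746 in place of 0.686 CPM.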

How the results depend on the processing

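No paired analysis was possible because the groups share no mouse numbers. The numbers of the 9 genes other than *Tlr8* past the threshold moved as follows. With library size alone they were 0 for 5xFAD against WT in SPF mice, 4 in GF mice (*Tlr2*, *Tlr3*, *Tlr4* and *Tlr7*) and 4 for ABX against GF 5xFAD mice. Of all 15298 genes, 748, 3026 and 1727 passed in these comparisons with library size alone. That scaling put the median of all genes at -0.15 in GF 5xFAD against WT mice, where TMM gave -0.03. Without the low-count filter the number for genotype was 0 in SPF and 1 in ABX mice. For ABX against GF 5xFAD mice it was 3 with 10 reads in every library and 4 with DESeq2, which called 2140 of all 15298 genes. voomWithQualityWeights gave 1 for genotype in ABX mice (2183 of all 15298 genes). It gave 2 each for GF against SPF and ABX against GF WT mice (10.7 and 13.2% of all genes). In 5xFAD mice it gave 5 for GF against SPF (25.3% of all genes) and 3 for ABX against GF (9.88%). Gene length offsets gave 1 for ABX against GF WT (1218 of all 15298 genes) and 1 for GF against SPF 5xFAD mice (1441). GC content offsets gave 0 for the latter comparison (9.43% of all genes). The 26 mice gave 4 for genotype in GF (17.9% of all genes) and 1 in ABX mice (2312 of all 15278 genes). They gave 1 for ABX against GF WT (9.47%) and 3 for ABX against GF 5xFAD mice (10.5%). Fits of only the groups compared gave 3 for genotype under SPF and 1 each under GF and ABX conditions, 1 for GF against SPF WT, 2 for ABX against GF WT and 0 for ABX against GF 5xFAD mice. Shares of all genes are not given for the fits without the filter, with 10 reads in every library or of only the groups compared. The counts of these fits are therefore without a background. The causes were not tested.

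Without 1 mouse the number for genotype ranged from 0 to 1 in SPF, 1 to 4 in GF and 1 to 3 in ABX mice. For WT mice it was 0 throughout between GF and SPF and 0 to 1 between ABX and GF. For 5xFAD mice it ranged from 0 to 3 between GF and SPF and from 0 to 5 between ABX and GF. In the latter it was 0 without FAD_GF_181, FAD_GF_184 or FAD_ABX_1151, 4 without FAD_GF_201 and 5 without FAD_ABX_1482. Without FAD_GF_201 13% of all genes passed there, and the share without FAD_ABX_1482 is not given. For the interactions it was 0 in each setting and fit, and for any difference among the groups 4 to 6. *Tlr2* in GF and in ABX mice was called in 10 of 10 alternatives and 28 of 28 fits without 1 mouse. Among the values of 24 gene results with an unadjusted p under 0.05, 808 kept direction and side of the threshold, 55 lost the call, 49 gained it and 0 turned. *Tlr8* had at most 129 and *Tlr9* at most 190 reads per library.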

Other observations

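*Tlr12*, an endosomal receptor of mice that is not among the 10 genes, was at 56.7 CPM on average in ABX WT and 82.4 CPM in ABX 5xFAD mice (log2 difference 0.54, adjusted p = 0.015, edgeR). The call did not survive offsets for GC content (0.41, adjusted p = 0.0739) or the removal of WT_ABX_911 (0.46, adjusted p = 0.0629). Its adjusted p-values for genotype were 0.93 in SPF and 0.27 in GF mice.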
